A study of Mus musculus with 83 samples.

Results

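Kit ligand (Kitl, also called stem cell factor) and its receptor (Kit) were followed follicle by follicle in 83 RNA libraries, each made from 1 mouse ovarian follicle. These 2 genes are 2 of the 21572 genes in the count table, and both were among the 11889 genes kept by a filter on low counts. They were picked by name as a ligand and receptor pair, with their levels in these follicles already known. Their levels across groups are therefore given as a description, with no test of either gene between groups.

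The follicles came from CD-1 mice, an outbred strain, of wild-type genotype. Follicle numbers were 15 vitrified and 18 fresh at 0 h, 14 vitrified and 6 fresh at 1 h, 7 vitrified and 7 fresh at 4 h, and 12 vitrified and 4 fresh at 8 h. Vitrification is cryopreservation by cooling to a glass without ice crystals, and fresh follicles were not frozen. Every follicle, of either kind and at every time including 0 h, was labelled as hCG-treated and had gone through 8 days of growth in beads of 0.5% alginate with FSH. Times count from the move of follicles of 300 to 350 µm into a maturation medium. That medium held 10 ng/ml EGF, recombinant FSH at 10 mIU/ml and 1.5 IU/ml hCG, a placental gonadotropin that stands in for the ovulatory surge of luteinizing hormone. Fresh and vitrified 0 h follicles shared a plate with each other and with no later follicle, so the step between 0 h and 1 h cannot be told apart from a difference between plates. A plate shared by fresh and vitrified follicles held all the later fresh ones, with 5, 7 and 3 vitrified follicles of 1, 4 and 8 h. A vitrified-only plate held 9 vitrified follicles of 1 h and 9 of 8 h. On both later plates each row held follicles of only 1 kind and time, so row and group cannot be told apart. The sample numbers in the titles repeat between rows of the shared plate. Whether its rows were sequenced together is not labelled. The animals and culture runs behind the follicles are not labelled, so a p-value here reflects only variation among follicles, part of which may be technical. Whole follicles hold several cell types, and fewer cells of a type cannot be told apart from less RNA per cell.

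In the ovary KITL is made mainly by granulosa cells, the cells that surround the oocyte. KIT is a receptor tyrosine kinase carried by the oocyte and by theca and interstitial cells outside the granulosa layer. Alternative splicing gives KITL forms that stay on the membrane or are cut off as a soluble factor. Bound KIT signals through PI3K, AKT and FOXO3, through RAS and the MAP kinases, and through SRC family kinases. In mice the pair acts in early follicle growth and in recruitment of theca cells, and KITL from granulosa cells is known to respond to gonadotropins and to oocyte factors.

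Library totals ran between 682200 and 6504588 estimated counts. Kitl had between 2 and 1035 counts per follicle and Kit between 1 and 259, so the lowest levels rest on very few reads. Levels are given as CPM, counts scaled to library size, after TMM scaling, a correction for differences in library makeup. Granulosa markers dominated in all groups, with summed levels of 10281 to 97063 CPM per follicle. The 20 oocyte markers summed to 3.71 to 290 CPM per follicle, and Gdf9, an oocyte growth factor, averaged 2.20 to 5.72 CPM over the groups. Its partner Bmp15 averaged 1.95 to 4.31 CPM and Zp3, a protein of the egg coat, 1.08 to 6.05 CPM. These oocyte markers were thus a small part of each library, and the share of all oocyte RNA was not measured. Amh, a marker of growing-follicle granulosa cells, averaged under 1 CPM in every group. Foxl2, a transcription factor of granulosa cells, averaged 57.8 ± 29.2 CPM in vitrified (SD, n = 15) and 71.9 ± 37.9 CPM in fresh follicles (SD, n = 18) at 0 h, and at most 7.47 CPM in any later group.

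Kitl lies at chr10:100015630-100100416 on the plus strand and Kit at chr5:75574916-75656722 on the plus strand (GRCm38, GENCODE vM21), with 6 and 8 annotated transcripts. No other annotated gene overlaps either one, and counts per gene do not separate the membrane-bound and soluble splice forms of Kitl. The 250 bases before each gene's start in RefSeq (GRCm38.p6, 5′ to 3′) are printed because ligand and receptor differed in how their RNA moved with time. Capitals mark matches, on either strand, to the motifs searched. The Kitl window is chr10:100015571-100015820 and the Kit window chr5:75574737-75574986. Both windows run past the GENCODE gene start given above, so part of each lies inside the annotated gene. Kit had 2 RefSeq entries, and the window of the first by position is printed.
Kitl: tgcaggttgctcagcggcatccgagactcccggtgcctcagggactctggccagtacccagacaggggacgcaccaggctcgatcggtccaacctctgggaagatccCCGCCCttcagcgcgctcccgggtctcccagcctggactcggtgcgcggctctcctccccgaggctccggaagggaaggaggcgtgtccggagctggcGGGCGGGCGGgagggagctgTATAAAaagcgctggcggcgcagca
Kit: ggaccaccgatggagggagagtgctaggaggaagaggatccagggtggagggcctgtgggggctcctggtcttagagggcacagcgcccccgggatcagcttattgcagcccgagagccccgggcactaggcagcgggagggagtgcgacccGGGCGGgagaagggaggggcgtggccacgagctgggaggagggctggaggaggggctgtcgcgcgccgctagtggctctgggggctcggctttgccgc

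Both windows were rich in G and C, at 69.2% for Kitl and 70.8% for Kit. The Kitl window had 1 TATA box (TATAAA) that began 25 bases before the RefSeq start, and 12.4% of 32851 RefSeq promoter windows held that motif. It had 3 GC boxes (GGGCGG), of which 2 overlap on the plus strand. The Kit window had 1 GC box, which began 98 bases before the RefSeq start, and no TATA box. GC boxes were present in 32.7% of all windows. Neither window had a cAMP response element (TGACGTCA, in 1.55% of windows), the shorter TGACG that lies inside it (17.8%), the nuclear receptor motif AGGTCA (14%) or a FOXO site (GTAAACA, 3.17%). A match is only a match of letters, and a window without one says nothing about the factor.

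The ligand RNA was higher in vitrified than in fresh follicles at 0 h, peaked at 1 h in both kinds and was low again by 4 h. At 0 h Kitl had a lowest, median and highest level of 2.03, 25.5 and 46.0 CPM in vitrified follicles, against 0.386, 3.31 and 11.2 CPM in fresh follicles. Of 15 vitrified follicles, 11 lay above every fresh one, and the other 4 lay within the fresh range. The means were 22.9 ± 13.1 CPM in vitrified (SD, n = 15) and 3.94 ± 3.07 CPM in fresh follicles (SD, n = 18). The fitted log2 fold change, vitrified over fresh, was 2.64 ± 0.37 (SE), a 6.23-fold difference. The plate rows of each kind gave like values, with means of 20.5 and 27.5 CPM in the vitrified rows and 3.62 and 4.34 CPM in the fresh rows. Each row held follicles of only one kind, so row and group cannot be told apart.

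At 1 h on the shared plate Kitl was 255, 157, 65.0, 145 and 152 CPM in the 5 vitrified follicles. Its level in the 6 fresh follicles ran between 13.6 and 152 CPM, with a median of 38.7 CPM. Of the 5 vitrified follicles, 3 lay above all fresh ones and all 5 lay above the fresh median, and the ranges overlapped through 1 fresh follicle that reached 152 CPM. The 9 vitrified follicles on the vitrified-only plate had a lowest, median and highest level of 54.2, 130 and 349 CPM, which overlapped the shared-plate vitrified values. Means were 155 ± 67.5 CPM in shared-plate vitrified follicles (SD, n = 5) and 57.2 ± 49.3 CPM in fresh follicles (SD, n = 6), with a log2 fold change of 1.44 ± 0.53 (SE).

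At 4 h Kitl had a lowest, median and highest level of 1.94, 10.5 and 18.9 CPM in vitrified follicles, against 1.90, 6.81 and 9.51 CPM in fresh follicles. Of the 7 vitrified follicles, 4 lay above every fresh one and the others lay inside the fresh range. The log2 fold change was 0.59 ± 0.60 (SE), a difference no larger than its error. At 8 h on the shared plate Kitl was 3.32, 2.89 and 6.82 CPM in the 3 vitrified follicles, against 4.80, 6.72, 6.85 and 1.29 CPM in the 4 fresh follicles. These ranges overlapped, and the log2 fold change was -0.12 ± 0.79 (SE). The 9 vitrified 8 h follicles of the vitrified-only plate ran higher, between 4.65 and 23.1 CPM with a median of 11.4 CPM. Of them, 7 lay above all 3 vitrified follicles of the shared plate, so Kitl at 8 h differed between the plates.

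**Figure D1:**
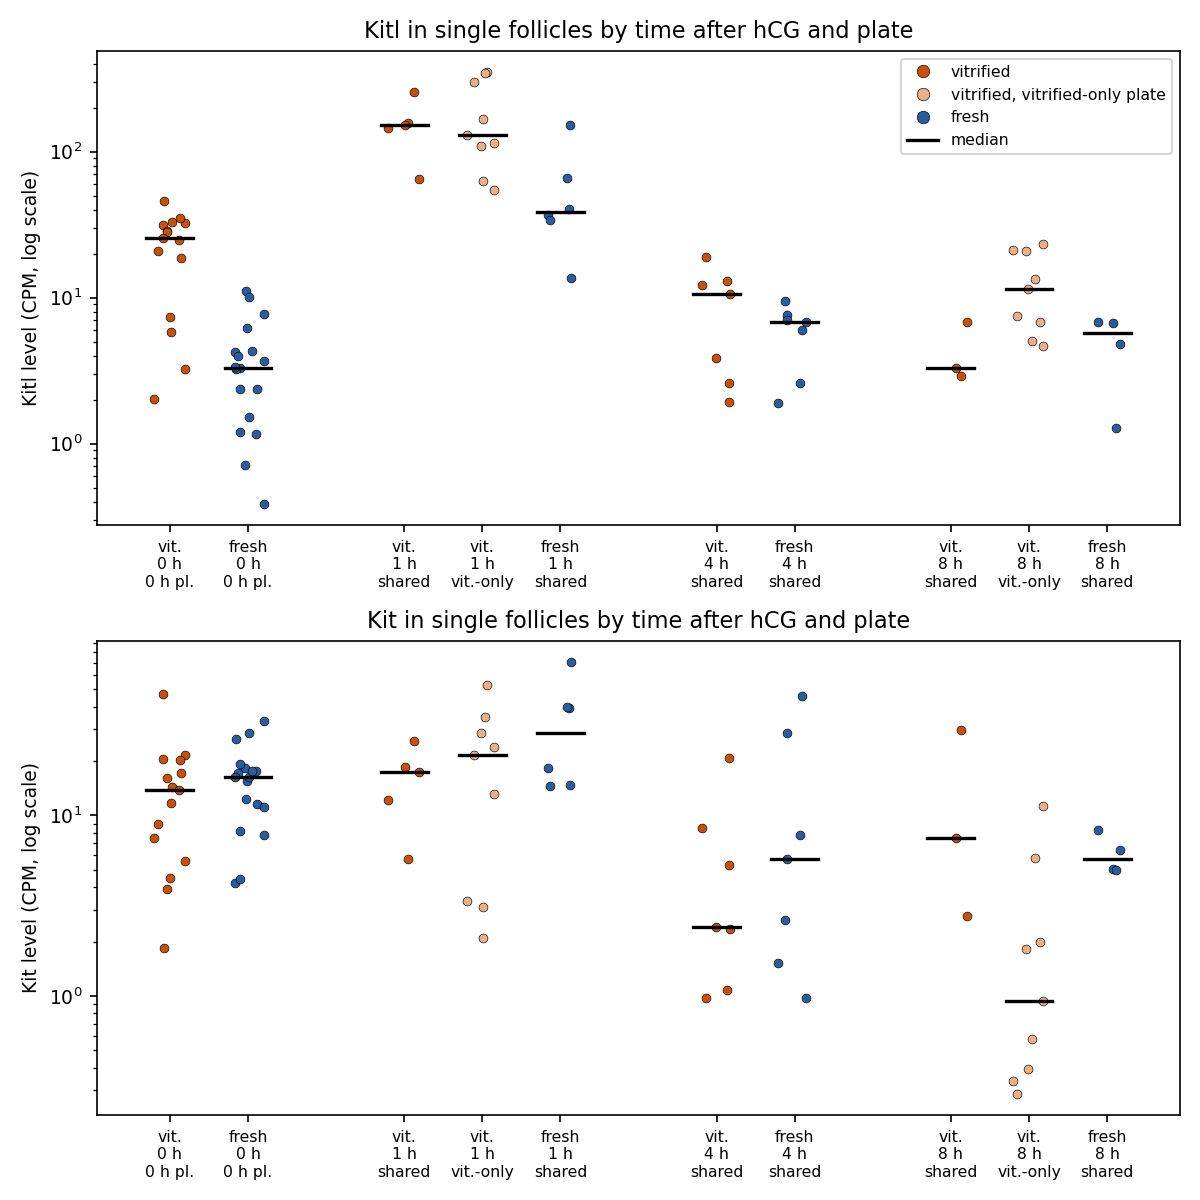
Levels of Kitl (top) and Kit (bottom) in each of the 83 follicles, in CPM on a log axis, by time after hCG, treatment and plate (pl.); points are follicles and black lines medians. Kitl at 1 h lies above every follicle of the same treatment at 0 h and 4 h. Kit at 1 h overlaps Kit of the same treatment at 0 h and 4 h, and vitrified and fresh Kit overlap at each time.

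Between 0 h and 1 h Kitl was higher by 2.77 ± 0.42 on the log2 scale (SE) in vitrified follicles and by 3.97 ± 0.43 in fresh follicles, which are 6.82-fold and 15.7-fold. No 1 h follicle overlapped a 0 h follicle of its own kind. Of all genes tested, 7.65% showed no overlap in that direction in vitrified follicles and 6.25% in fresh follicles. Because the 0 h plate held no other time, this step is also a comparison between plates.

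Between 1 h and 4 h, on separate rows of the shared plate, Kitl was lower at 4 h by the larger amount in vitrified follicles. The log2 fold change, 4 h over 1 h, was -4.12 ± 0.57 (SE) in vitrified and -3.28 ± 0.58 in fresh follicles. All 7 follicles of 4 h lay below every 1 h follicle, in vitrified and in fresh follicles alike. Of all genes tested, 13.2% in vitrified and 12% in fresh follicles were lower without overlap. The vitrified step minus the fresh step was -0.85 ± 0.81 (SE), about the size of its error. On the vitrified-only plate, where 4 h is missing, the 9 follicles of 8 h lay below all 9 of 1 h, with a log2 fold change of -3.84 ± 0.47 (SE). Of all genes, 10% were lower without overlap there.

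Between 4 h and 8 h on the shared plate Kitl differed by -0.99 ± 0.74 in vitrified and by -0.29 ± 0.69 in fresh follicles (log2, SE), and the ranges overlapped in both. Without the third vitrified 8 h follicle the vitrified value was -1.52, and scaling by total counts alone turned the fresh value to 0.33. Ordered by median, Kitl was highest in vitrified follicles of 1 h, then in fresh follicles of 1 h and vitrified follicles of 0 h. It was lowest in fresh follicles of 0 h and in vitrified follicles of 8 h on the shared plate. Each group overlapped its neighbour in that order, and the means of neighbours differed by more than the larger SD only between vitrified 1 h follicles of the vitrified-only plate and fresh 1 h follicles.

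The receptor RNA varied more from follicle to follicle than between vitrified and fresh follicles. At 0 h Kit had a lowest, median and highest level of 1.84, 13.9 and 46.9 CPM in vitrified follicles, against 4.22, 16.3 and 33.4 CPM in fresh follicles. The groups overlapped almost wholly, and the log2 fold change was -0.16 ± 0.41 (SE). At 1 h Kit was 25.9, 5.71, 17.3, 12.1 and 18.5 CPM in the 5 vitrified follicles of the shared plate. In the 6 fresh follicles it ran between 14.5 and 70.4 CPM with a median of 28.6 CPM. All 5 vitrified follicles lay below that median, 2 of them below every fresh follicle. The log2 fold change was -1.02 ± 0.69 (SE), and -0.18 with an additive plate term. The 9 vitrified follicles of the vitrified-only plate spanned 2.10 to 52.6 CPM at 1 h, a range that took in nearly all of both others.

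At 4 h Kit had a lowest, median and highest level of 0.972, 2.42 and 20.7 CPM in vitrified follicles, against 0.973, 5.76 and 45.7 CPM in fresh follicles. The ranges overlapped, with 1 vitrified and 2 fresh follicles far above the rest of their groups. The log2 fold change was -1.09 ± 0.69 (SE). The high vitrified follicle also had the highest sum of theca and stroma markers in its group, 946 CPM. The high fresh follicles, at 28.7 and 45.7 CPM, were second and first of their group by that sum, with 1085 and 1909 CPM. These high follicles also ranked 1 or 2 by the endothelial and immune sums, so their rank was not particular to theca and stroma markers. By the oocyte sum the vitrified follicle ranked 7, and the fresh ones 3 and 1. At 8 h on the shared plate Kit was 7.46, 29.7 and 2.76 CPM in the 3 vitrified follicles, against 6.41, 5.04, 8.31 and 4.97 CPM in the 4 fresh follicles. The log2 fold change of 1.18 ± 0.87 (SE) rested on 1 vitrified follicle, replicate 2, and was -0.33 without it. That follicle had the highest theca and stroma sum of the 3, 705 CPM, and also the highest endothelial sum, 44.5 CPM. It ranked 2 by the immune and by the oocyte sum.

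On the vitrified-only plate Kit was the lowest of any group, with a lowest, median and highest level of 0.288, 0.940 and 11.2 CPM at 8 h. Of those 9 follicles, 7 lay below all 3 vitrified 8 h follicles of the shared plate, the opposite order to Kitl. Likewise 7 of the 9 lay below every 1 h follicle of the same plate, and the log2 fold change, 8 h over 1 h, was -2.93 ± 0.61 (SE). Theca and stroma markers were lower in the same comparison, where 8 of 13 tested fell and 1 rose, 69.2% of the list against 59.4% of all genes called. Cyp17a1, the theca enzyme of androgen synthesis, fell by 5.22 ± 0.84 (log2, SE, adjusted p = 1.58e-07), and their part in the level of Kit was not tested.

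Over the steps between 0 h and 1 h and between 1 h and 4 h the fitted difference of Kit was smaller than that of Kitl. Between 0 h and 1 h the log2 difference was 0.17 ± 0.59 in vitrified and 1.04 ± 0.51 in fresh follicles (SE), and the vitrified value was -0.46 when libraries were scaled by total counts alone and 1.02 with an additive plate term, a model that also takes in the vitrified-only plate. Between 1 h and 4 h it was -1.37 ± 0.71 in vitrified and -1.31 ± 0.64 in fresh follicles (SE), where 5 of 7 follicles of 4 h lay below all of 1 h in both kinds. The plate term moved the vitrified value to -2.22. Between 4 h and 8 h it was 1.14 ± 0.79 in vitrified and -1.13 ± 0.78 in fresh follicles (SE). The vitrified value was -0.34 without replicate 2 of the 8 h follicles. Ordered by median, Kit was highest in fresh 1 h follicles and lowest in vitrified 8 h follicles of the vitrified-only plate. No pair of neighbours in that order differed by more than the larger SD. Groups farther apart in that order could be separate. Kit in fresh 8 h follicles, at 4.97 to 8.31 CPM, lay below every fresh 1 h follicle, at 14.5 to 70.4 CPM. That step was not fitted, and the share of all genes with such a gap was not computed.

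**Figure D2:**
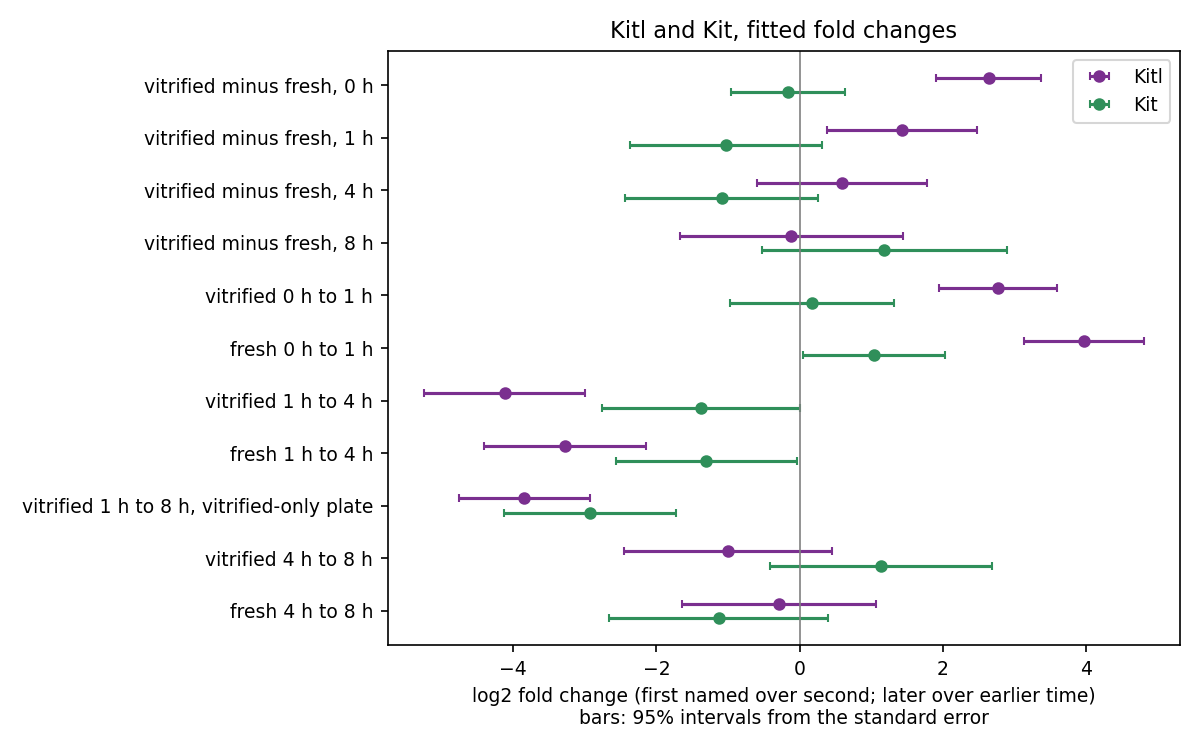
Fitted log2 fold changes of Kitl (purple) and Kit (green) with 95% intervals as bars, for vitrified over fresh follicles at each time and for the later over the earlier time within each treatment. Kitl differs by 2.77 or more in size across the steps between 0 and 1 h and between 1 and 4 h, and the estimates for Kit at these steps stay within 1.37 of 0.

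Ligand and receptor can be set against each other only per transcript length, for which the deposited TPM values, a level scaled for gene length and library total, were used. At 0 h Kitl exceeded Kit in 11 of 15 vitrified follicles, against 0 of 18 fresh follicles. The median of the ratio, Kitl over Kit, was 1.66 in vitrified follicles and 0.231 in fresh follicles. At 1 h Kitl exceeded Kit in 5 of 5 vitrified follicles of the shared plate and in 9 of 9 of the vitrified-only plate, against 5 of 6 fresh follicles. The median ratios were 9.52, 9.48 and 1.77 in these groups. By 4 h the ratio was split again, with Kitl higher in 5 of 7 vitrified and 4 of 7 fresh follicles and median ratios of 1.54 and 1.18. At 8 h the plates diverged: Kitl was higher in 1 of 3 vitrified follicles of the shared plate and in 8 of 9 of the vitrified-only plate, against 1 of 4 fresh follicles. The median ratios were 0.429, 11.2 and 0.758. The TPM ratio is free of library scaling, but it takes 1 length per gene from the authors' processing.

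**Figure D3:**
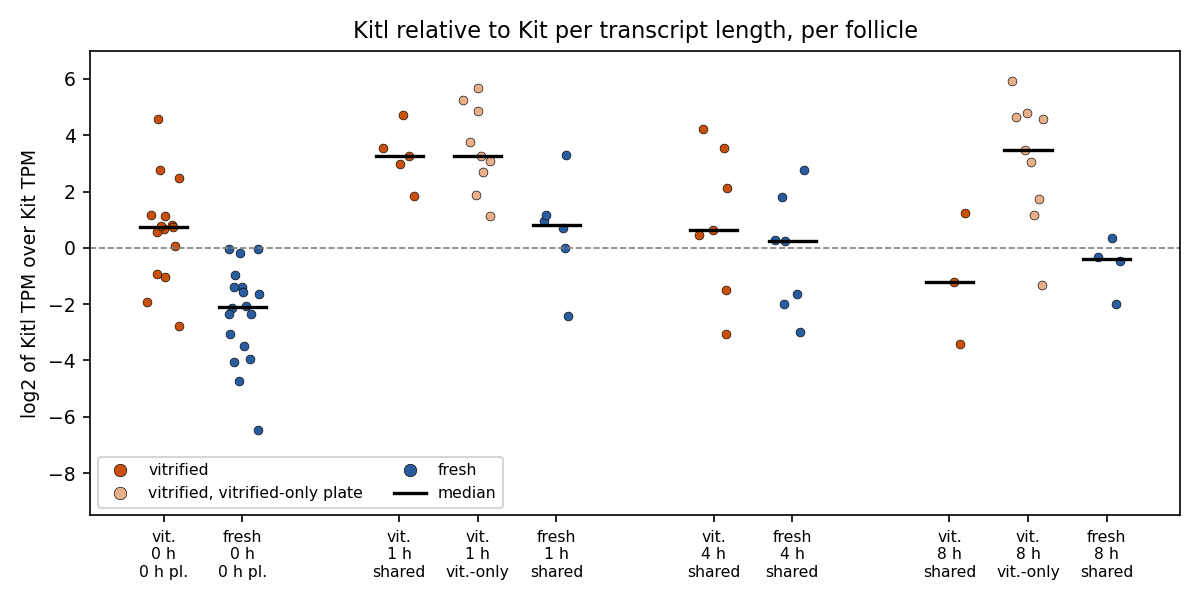
Log2 of Kitl TPM over Kit TPM in each follicle, by time, treatment and plate (pl.); the dashed line marks equal TPM and black lines mark medians. All 18 fresh 0 h follicles lie below the line and all 14 vitrified 1 h follicles above it.

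Levels of the pair had little relation among follicles. Over the 10 means of group and plate the Pearson r of Kitl and Kit was 0.46, and over the deviations of 83 follicles from their group means it was -0.09, both given as a description. By the rule of closest likeness over the same 10 means of log2(CPM + 1), the 5 genes most like Kitl among 7162 that varied enough were Slc19a2 (r of 0.96), Gm4876, Gm13502, Hdac5 and Sgms2. Slc19a2 encodes a thiamine transporter, Hdac5 a histone deacetylase and Sgms2 a sphingomyelin synthase. The 5 most like Kit were Lrrc17 (r of 0.97), Cd302, Lgals3bp, Entpd6 and Ifi27. Within groups these likenesses were weak, with r between 0.09 and 0.21 for the genes like Kitl and between 0.05 and 0.24 for those like Kit.

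Among 0 h follicles, Kit was correlated with oocyte markers in vitrified follicles, and in fresh follicles Kit was correlated with theca and stroma markers and Kitl with granulosa markers. None of these 3 relations held under every check, and whether they differed between vitrified and fresh follicles was not tested. The 2 genes were set against the summed CPM of 3 marker lists in vitrified and in fresh follicles apart, which makes 12 relations on the log2(CPM + 1) scale. The sums were unweighted, so abundant genes count most in them. The genes with the highest mean level were Padi6 for oocyte, Inha (the inhibin alpha subunit) for granulosa, and Col3a1 (a collagen) for theca and stroma. Whether the relations hold for the other genes of each list was not tested. In vitrified follicles Kit and the oocyte sum had a Pearson r of 0.66 (n = 15, permutation test, two-sided, p = 0.0070, adjusted p = 0.028) and a Spearman rho of 0.59 (permutation p = 0.0223, adjusted p = 0.0535). Without the 2 follicles farthest from the median oocyte sum r was 0.40, so the relation rested on those follicles. In fresh follicles the r of Kit and the oocyte sum was 0.13 (n = 18, permutation p = 0.618, adjusted p = 0.674).

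Kit and the theca and stroma sum had an r of 0.57 in vitrified follicles (n = 15, permutation p = 0.0280, adjusted p = 0.0559) and of 0.64 in fresh follicles (n = 18, permutation p = 0.0045, adjusted p = 0.027). Spearman's rho was 0.61 in vitrified follicles (permutation p = 0.0182, adjusted p = 0.0535) and 0.63 in fresh follicles (permutation p = 0.00652, adjusted p = 0.0535). Kit ran the other way against the granulosa sum, with r of -0.49 in vitrified (permutation adjusted p = 0.113) and -0.53 in fresh follicles (permutation adjusted p = 0.0559). Kitl and the granulosa sum had an r of 0.23 in vitrified (permutation adjusted p = 0.562) and 0.68 in fresh follicles (permutation adjusted p = 0.023), with a rho of 0.57 in fresh follicles (permutation adjusted p = 0.0535). Kitl and the oocyte sum had an r of 0.21 in vitrified (permutation adjusted p = 0.562) and -0.54 in fresh follicles (permutation adjusted p = 0.0559). Kitl and the theca and stroma sum had an r of -0.20 in vitrified (permutation adjusted p = 0.562) and -0.03 in fresh follicles (permutation adjusted p = 0.912). In fresh follicles, leaving out the 2 follicles farthest from the median sum gave r of 0.46 for Kit with theca and stroma and of 0.43 for Kitl with granulosa markers, and neither passed after adjustment. Centred within plate rows, the r of Kit with oocyte markers in vitrified follicles was 0.66 (permutation adjusted p = 0.061). In fresh follicles it was 0.62 for Kit with theca and stroma (permutation adjusted p = 0.044) and 0.69 for Kitl with granulosa markers (permutation adjusted p = 0.0304). Sums and genes share a library and its scaling. On TMM-scaled CPM no Spearman coefficient passed after adjustment, whereas by total counts 5 passed and on deposited TPM 4 passed.

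**Figure D4:**
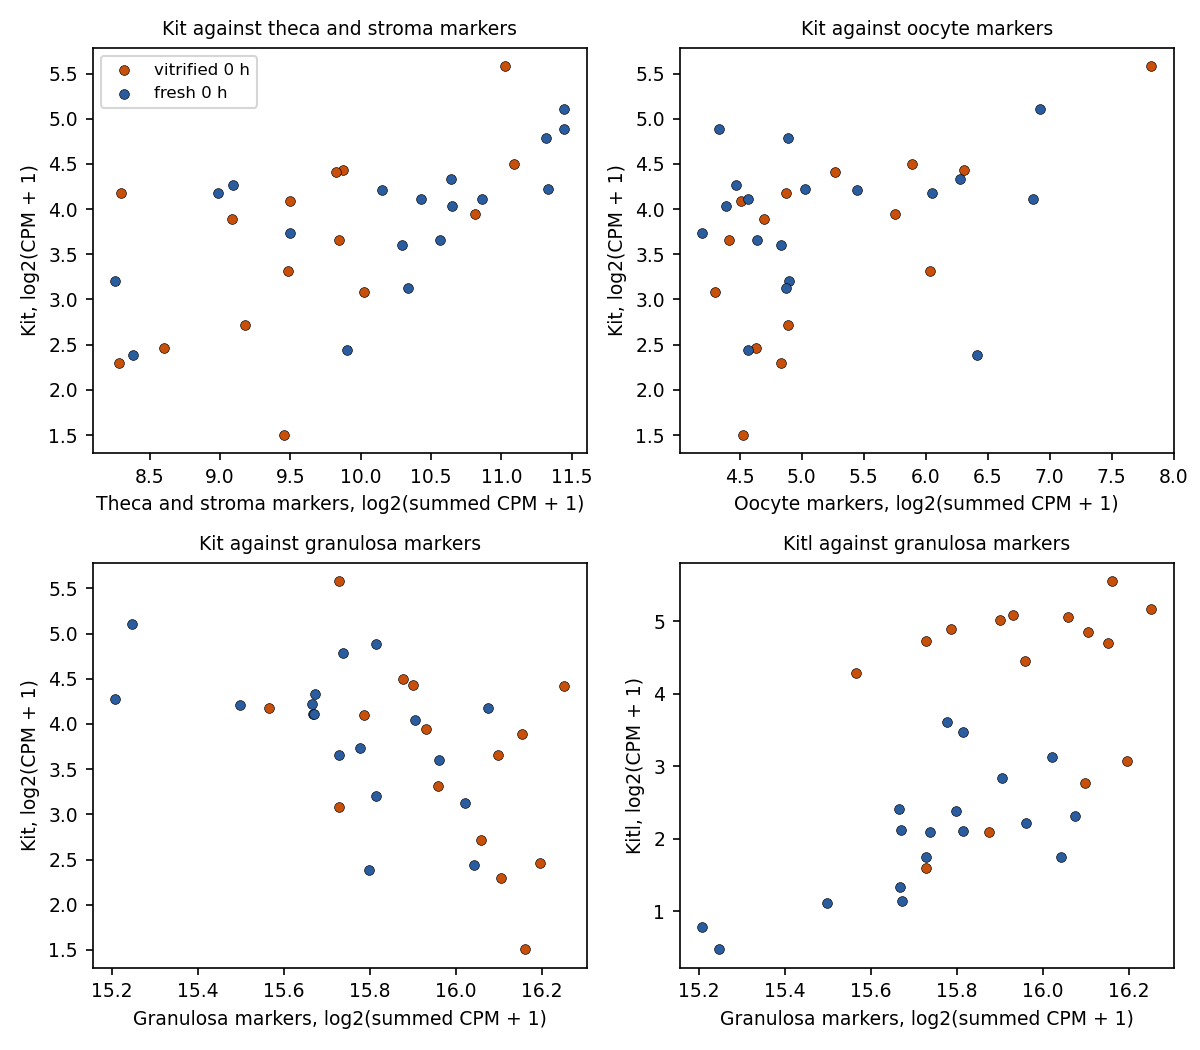
Kit or Kitl against summed marker levels in the 15 vitrified and 18 fresh follicles of 0 h, both axes as log2(CPM + 1); each point is a follicle. Kit against theca and stroma markers has an r of 0.57 in vitrified and 0.64 in fresh follicles, and the vitrified follicle with the highest oocyte sum also has the highest Kit.

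At 0 h, where Kitl differed most between vitrified and fresh follicles, summed theca and stroma, endothelial and immune markers had lower medians in vitrified follicles. There the theca and stroma sum had a median of 723 CPM in vitrified follicles (range 309 to 2183) and 1335 CPM in fresh follicles (range 304 to 2794). Of 13 such markers tested 1 was called, Lum, a stromal proteoglycan, which fell at -1.55 ± 0.41 (log2, SE, edgeR adjusted p = 0.0385). By edgeR 9 of the 13 had an unadjusted p under 0.05, in either direction. Of all genes tested, 0.967% were called in that comparison. The median over the list was -0.88, against -0.02 over all genes. Cyp17a1 averaged 161 ± 82.3 CPM in vitrified (SD, n = 15) and 69.8 ± 57.1 CPM in fresh follicles (SD, n = 18), the other direction from its list. Of 10 granulosa markers tested 2 rose at 0 h, Fshr, the FSH receptor, at 0.95 ± 0.21 (log2, SE, adjusted p = 0.00543), and Inha, the inhibin alpha subunit, at 0.39 ± 0.09 (adjusted p = 0.00873). Their sum had a median of 63642 CPM in vitrified (range 48517 to 78079) and 55381 CPM in fresh follicles (range 37822 to 69093). The 6 endothelial markers had a median sum of 7.27 CPM in vitrified (range 0.919 to 42.2) and 18.6 CPM in fresh follicles (range 3.01 to 59.6). The 7 immune markers had a median sum of 1.11 CPM in vitrified (range 0 to 44.8) and 14.1 CPM in fresh follicles (range 2.19 to 99.1). An unadjusted p under 0.05 by edgeR was reached by 3 of 10 granulosa, 3 of 4 endothelial and 1 of 1 immune markers tested. No endothelial or immune marker was called. The part of these lists in the levels of Kitl and Kit was not tested. Of the 7 mast cell markers, which mark another KIT-bearing cell, only Hdc had a row in the count table. Its level alone does not show that mast cells were present. Hdc had a median of 2.45 CPM in vitrified and 1.21 CPM in fresh follicles at 0 h. It ran between 52.3 and 276 CPM at 8 h and reached at most 17.9 CPM before.

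Downstream of the receptor, few of the KIT signalling genes differed between vitrified and fresh follicles, and many changed with time, as did many of all genes. Of the 65 genes listed, 57 were tested. At 0 h 1 rose and 1 fell in vitrified relative to fresh follicles, or 3.51% of the list against 0.967% of all genes called. Foxo3, the transcription factor that AKT moves out of the nucleus, rose by 0.55 ± 0.12 (log2, SE, adjusted p = 0.004), with 193 ± 41.7 CPM in vitrified (SD, n = 15) and 132 ± 27.3 CPM in fresh follicles (SD, n = 18). Pik3r1, a regulatory subunit of PI3K, fell by 0.70 ± 0.15 (adjusted p = 0.00296), with 57.7 ± 17.5 CPM in vitrified and 93.6 ± 29.2 CPM in fresh follicles.

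At 1 h 1 of 57 KIT signalling genes rose, or 1.75% against 0.555% of all genes. This was Sos2, an exchange factor that activates RAS, at 4.39 ± 1.08 (log2, SE, adjusted p = 0.0269). Sos2 ran between 2.75 and 578 CPM in the 5 vitrified follicles with a median of 9.34 CPM, against 3.31 to 10.9 CPM in the 6 fresh follicles, so the fold change came from the upper end of a very wide range. Without the fourth vitrified 1 h follicle no KIT signalling gene was called. At 4 h 0 of 57 were called by edgeR, with 5 at an unadjusted p under 0.05, 1 called by DESeq2 and 0 by limma, against 0.118% of all genes. At 8 h 1 rose and 3 fell, or 7.02% of the list against 2.06% of all genes. Rptor, the scaffold of mTOR complex 1, fell by 2.22 ± 0.53 (log2, SE, adjusted p = 0.00837), and Spred2, an inhibitor of RAS signalling, by 1.54 ± 0.40 (adjusted p = 0.0191). Mtor, the kinase of that complex, rose by 1.31 ± 0.29 (adjusted p = 0.00331) and is named after its value was seen. Each of these 8 h calls compares 3 vitrified with 4 fresh follicles. Rptor had 10.8 ± 3.02 CPM in the 3 vitrified follicles of the shared plate and 19.5 ± 7.96 CPM in the 9 of the vitrified-only plate, against 49.5 ± 4.33 CPM in the 4 fresh follicles (SD). The vitrified follicles of both plates lay below the fresh ones without overlap. On the shared plate 5.96% of all genes tested were lower in vitrified follicles without overlap. For the vitrified-only plate that share was not computed, and there plate and treatment cannot be told apart.

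Between 0 h and 1 h, across plates, 19 KIT signalling genes rose and 11 fell in vitrified follicles, and 15 rose and 13 fell in fresh follicles. Of all genes, 43.5% were called in vitrified and 42.1% in fresh follicles, against 52.6% and 49.1% of the list. Yes1, a SRC family kinase, rose by 4.23 ± 0.21 in vitrified and by 4.02 ± 0.19 in fresh follicles (log2, SE, adjusted p = 2.77e-32 and 1.38e-33). Cblb, a ubiquitin ligase of receptor tyrosine kinases, rose by 3.47 ± 0.20 in vitrified and 2.80 ± 0.18 in fresh follicles (adjusted p = 1.26e-27 and 3.61e-24). Foxo1, the FOXO factor of granulosa cells, fell by 2.70 ± 0.38 in fresh follicles (adjusted p = 6.26e-09). Its step was not called different between vitrified and fresh follicles.

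Between 1 h and 4 h 9 rose and 16 fell in vitrified, and 14 rose and 14 fell in fresh follicles, which is 43.9% and 49.1% of the list against 46.5% and 46.4% of all genes. Foxo1 fell by 4.73 ± 0.50 in vitrified and by 3.15 ± 0.47 in fresh follicles (adjusted p = 4.59e-13 and 3.92e-08). Sos2 fell by 4.06 ± 0.99 in vitrified and rose by 3.65 ± 1.03 in fresh follicles (adjusted p = 0.00047 and 0.00238), with the wide spread between follicles described above. Foxo3 fell by 2.85 ± 0.20 in fresh follicles (adjusted p = 5.16e-22), and Pik3cd, a catalytic subunit of PI3K, by 2.88 ± 0.35 in vitrified follicles (adjusted p = 6.18e-11). For neither gene was the step called different between vitrified and fresh follicles. Between 4 h and 8 h 10 rose and 15 fell in vitrified, and 11 rose and 13 fell in fresh follicles, which is 43.9% and 42.1% of the list against 37.1% and 36.5% of all genes. Yes1 fell by 3.76 ± 0.38 in vitrified and 3.59 ± 0.33 in fresh follicles (adjusted p = 1.35e-13 and 2.1e-15). Stat5a, a transcription factor that KIT can activate, rose by 3.44 ± 0.41 in vitrified and 2.96 ± 0.41 in fresh follicles (adjusted p = 1.03e-10 and 5.15e-09). On the vitrified-only plate, between 1 h and 8 h, 15 rose and 16 fell, 54.4% of the list against 59.4% of all genes. Dok1, a docking protein that restrains RAS signalling, rose by 5.20 ± 0.58 there (adjusted p = 6.55e-13). Its rise began near the floor, from a mean of 0.257 CPM at 1 h to 9.09 CPM at 8 h. Yes1 fell by 4.14 ± 0.23 (adjusted p = 1.63e-28). The vitrified minus the fresh step was called for 0, 1 and 2 of 57 genes, for steps ending at 1, 4 and 8 h. That is 0%, 1.75% and 3.51% of the list, against 0.16%, 0.0421% and 0.993% of all genes. At the first of these steps 8 reached an unadjusted p under 0.05 by edgeR.

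**Figure D5:**
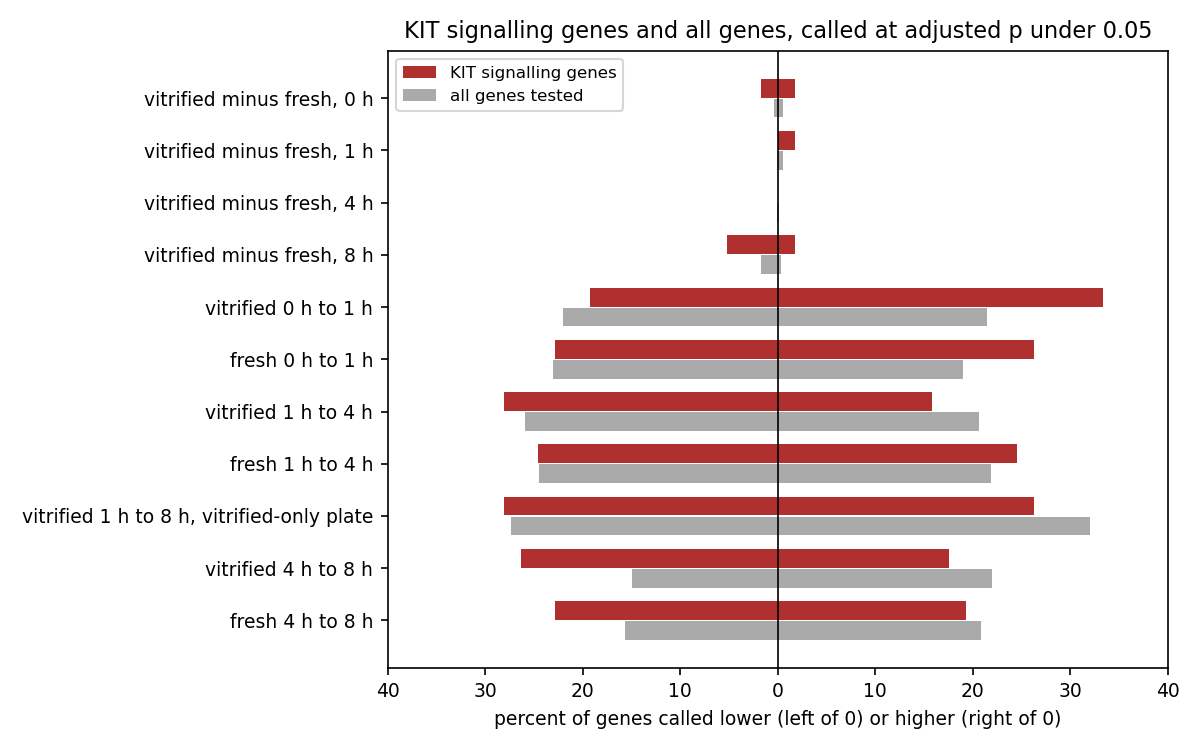
Percent of the 57 KIT signalling genes tested (red) and of all 11889 genes tested (grey) called lower (left of 0) or higher (right of 0) at an adjusted p under 0.05, per comparison. Bars for vitrified over fresh follicles are short in both, and bars for steps in time are of like length in the list and in all genes.

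Proteases that can free the soluble ligand, with their regulators, were counted from a list of 12 genes, 11 of them tested. None was called between vitrified and fresh follicles by edgeR at 0, 1, 4 or 8 h, with 1, 0, 1 and 2 at an unadjusted p under 0.05. Between 0 h and 1 h, across plates, 7 rose and 0 fell in vitrified, and 5 rose and 0 fell in fresh follicles, which is 63.6% and 45.5% of the list against 43.5% and 42.1% of all genes. Those named were all inhibitors or regulators rather than proteases. Timp1, an inhibitor of metalloproteases, rose by 2.07 ± 0.35 in vitrified and 1.84 ± 0.32 in fresh follicles (log2, SE, adjusted p = 8.42e-07 and 1.71e-06). Timp3, which inhibits ADAM17, rose by 1.89 ± 0.38 in vitrified and 2.27 ± 0.35 in fresh follicles (adjusted p = 2.92e-05 and 7.42e-08). Rhbdf1, an inactive rhomboid that brings ADAM17 to the surface, rose by 1.99 ± 0.29 in vitrified and 1.71 ± 0.27 in fresh follicles (adjusted p = 8.7e-09 and 1.58e-07).

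Between 1 h and 4 h 3 of the 11 rose and 4 fell in vitrified, and 2 rose and 2 fell in fresh follicles, or 63.6% and 36.4% against 46.5% and 46.4% of all genes. Timp1 rose by a further 3.42 ± 0.42 in vitrified and 3.77 ± 0.40 in fresh follicles (adjusted p = 7.86e-11 and 3.5e-13), whereas Timp2 fell by 3.05 ± 0.50 in vitrified and 2.75 ± 0.52 in fresh follicles (adjusted p = 3.52e-07 and 7.31e-06). Between 4 h and 8 h 4 rose and 2 fell in vitrified, and 2 rose and 2 fell in fresh follicles, or 54.5% and 36.4% against 37.1% and 36.5% of all genes. Timp3 fell by 1.88 ± 0.62 in vitrified and 2.27 ± 0.56 in fresh follicles (adjusted p = 0.0117 and 0.000762). Adam8, a metalloprotease, rose by 2.40 ± 0.57 in vitrified and 2.10 ± 0.57 in fresh follicles (adjusted p = 0.000491 and 0.00232).

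Receptors and factors known to act on Kitl in granulosa cells were counted from 17 tested genes of 22 with a row. None was called between vitrified and fresh follicles by edgeR at 0, 1, 4 or 8 h, with 1, 0, 1 and 2 at an unadjusted p under 0.05. Between 0 h and 1 h 6 rose and 2 fell in vitrified, and 4 rose and 4 fell in fresh follicles, which is 47.1% of the list in both, near the 43.5% and 42.1% of all genes. Tgfbr1, a receptor of TGF-beta and GDF9, rose by 2.89 ± 0.18 in vitrified and 2.57 ± 0.16 in fresh follicles (log2, SE, adjusted p = 2.26e-26 and 1.1e-25). Between 1 h and 4 h, when Kitl was lower, 4 rose and 6 fell in vitrified, and 6 rose and 6 fell in fresh follicles, or 58.8% and 70.6% against 46.5% and 46.4% of all genes. Bmpr1b, a type I BMP receptor, fell by 3.91 ± 0.27 in vitrified and 3.08 ± 0.25 in fresh follicles (adjusted p = 1e-22 and 2.52e-18). Bmpr2, the type II receptor of BMP15 and GDF9, fell by 3.42 ± 0.22 in vitrified and 2.96 ± 0.21 in fresh follicles (adjusted p = 7.47e-24 and 2.66e-21). Bmp6, a ligand of these receptors, rose by 3.81 ± 0.71 in vitrified and 3.65 ± 0.70 in fresh follicles (adjusted p = 4.36e-06 and 8.64e-06). These rises began near the floor, from means of 0.344 and 0.368 CPM at 1 h to 5.52 and 5.15 CPM at 4 h. Between 4 h and 8 h 1 rose and 6 fell in vitrified, and 1 rose and 2 fell in fresh follicles, or 41.2% and 17.6% against 37.1% and 36.5% of all genes.

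Relatives of the pair, the other class III receptor tyrosine kinases and their ligands, were mostly too low to test, with 5 of 10 tested. None was called between vitrified and fresh follicles by edgeR at any time, with 0, 1, 1 and 0 at an unadjusted p under 0.05 at 0, 1, 4 and 8 h. Of these, Pdgfd, a PDGF ligand, fell by 1.24 ± 0.38 between 0 h and 1 h in fresh follicles (log2, SE, adjusted p = 0.00518). Pdgfc, another PDGF ligand, rose by 3.02 ± 0.91 between 4 h and 8 h in fresh follicles (adjusted p = 0.00544). It rose by 2.46 ± 0.71 between 1 h and 8 h on the vitrified-only plate (adjusted p = 0.00187).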

How the data were processed

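RNA was measured in 83 single follicles, using Smart-Seq2 cDNA and Nextera XT libraries per the labels' protocols, so reads cover whole transcripts, carry no strand and no molecular identifiers. The authors deposited 2 tables. The first held estimated counts per gene, of which 15.1% were not whole numbers in the deposited table. The second held log2(TPM + 1) values computed by the authors, in which 1 gene, Gm10800, took 23.5% of all TPM on average. The submitters' processing notes name Partek, Bowtie2, HISAT2, DESeq2 and build mm10. Their roles and versions, and the treatment of reads matching more than one gene, are not given in the sources used here.

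Estimated counts were rounded and tested with edgeR 4.0.16 (robust quasi-likelihood test, R 4.3.3), scaled by TMM and filtered at a minimum count of 10. The 83 libraries entered a single model with 10 means, each for a combination of group and plate. P-values were adjusted by Benjamini-Hochberg over 11889 genes within each comparison and read at 0.05. Standard errors come from the F statistic. On counts simulated for vitrified against fresh at 0 h, over 11889 genes, 63% of genes changed by 1 on the log2 scale and 95% of those changed by 2 were recovered, and for fresh follicles between 1 h and 4 h, with 6 and 7 libraries, 40% and 82%. Relations at 0 h used permutation tests with 100000 resamples, adjusted over the 12 relations. Alternatives were other scaling, no filter, DESeq2 1.42.0, limma 3.58.1 on log2(TPM + 1), other treatments of the plate, and libraries left out.

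The 2 genes, the gene lists and the tests were chosen with earlier results of these data known. Lists covered KIT signalling, shedding proteases and inhibitors, class III receptors and ligands, paracrine factors acting on Kitl, and markers of oocyte, granulosa, theca and stroma, mast, immune and endothelial cells. At most 3 called genes, those with the largest change, were named per list and comparison. A gene named for 1 treatment may therefore have changed in the other as well. Values of 1 called KIT signalling gene are not reported here, and the counts include it. Levels of Gdf9, Bmp15, Zp3, Foxl2, Amh and Cyp17a1 are given by the same rule.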

Additional observations from a re-analysis of the deposited data

Results flagged for a closer look

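The gap between the most extreme follicle and its nearest neighbour was compared with the range of the group for Kitl and Kit in 14 groups of 4 to 10 follicles. For normally distributed levels chance alone picks about 1 in 20 groups. The rule was run on CPM without logs, where a long upper tail can be picked more often than that. The gap stood out in 2 groups, both for Kit and both with an SD larger than the mean. In vitrified 4 h follicles replicate 4 had 20.7 CPM, and the next highest had 8.45 CPM. In vitrified 8 h follicles of the vitrified-only plate replicate 6 had 11.2 CPM, and the next highest had 5.80 CPM. The second gap barely passed. The theca and stroma sum of the vitrified 4 h follicle was the highest of its 7, at 946 CPM, and that of the vitrified 8 h follicle ranked 4 of 9, at 369 CPM. The vitrified 4 h follicle also ranked 1 by the endothelial and immune sums, and the vitrified 8 h follicle ranked 2 and 9 by them.

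Spred2 and Sos2, both KIT signalling genes, changed over time by unequal amounts in vitrified and fresh follicles, tested as the vitrified step minus the fresh step by edgeR. Spred2 differed by -2.17 ± 0.48 between 4 h and 8 h (log2, SE, adjusted p = 0.00912). Of all genes tested, 0.993% were called at that step. Sos2 differed by -7.71 ± 1.44 between 1 h and 4 h (adjusted p = 0.00353), where 0.0421% of genes were called. Its level in vitrified 1 h follicles of the shared plate ran between 2.75 and 578 CPM, against 3.31 to 10.9 CPM in fresh 1 h follicles, and at 4 h between 0.577 and 20.4 CPM in vitrified and 1.01 and 308 CPM in fresh follicles. Spred2 ran between 24.6 and 44.4 CPM in the 3 vitrified 8 h follicles of the shared plate, against 73.3 to 109 CPM in the 4 fresh ones.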

How the results depend on the processing

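Kitl kept its direction under every alternative run for vitrified over fresh at 0, 1 and 4 h and for the steps between 0 and 1 h, 1 and 4 h, and 1 and 8 h. Limma on log2(TPM + 1) gave smaller values, which understate low genes: for Kitl 0.64 for vitrified over fresh at 0 h, 1.66 and 1.32 between 0 and 1 h in vitrified and fresh follicles, -2.09 and -1.24 between 1 and 4 h, and -1.71 between 1 and 8 h, and for Kit -0.45 between 1 and 8 h. With plates pooled, Kitl was 1.13 and Kit -0.13 for vitrified over fresh at 8 h, and Kitl 0.25 between 4 and 8 h in vitrified follicles. With an additive plate term, vitrified over fresh was -0.18 for Kit at 1 h, and 0.59 for Kitl and 0.31 for Kit at 8 h, and in vitrified follicles Kit was 1.02 between 0 and 1 h, -2.22 between 1 and 4 h and 0.27 between 4 and 8 h. With 1 library left out, the 8 h value ran between -0.65 and 0.16 for Kitl and between -0.33 and 1.67 for Kit.

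KIT signalling calls for vitrified over fresh numbered 9 with limma at 0 h, against 2. At 1 h they numbered 0 by total counts, with an additive plate term, with only the groups compared and with limma, 2 with plates pooled, and 0 to 2 with 1 library left out, against 1. At 4 h DESeq2 called 1, against 0. At 8 h they numbered 2 with an additive plate term, 11 with plates pooled and 1 to 4 with 1 library left out, against 4, with the 1 found without replicate 3 of the vitrified follicles. Limma called 48 between 1 and 8 h, against 31. Genes called among all tested for vitrified over fresh were 181 with DESeq2, 183 by total counts and 1552 with limma at 0 h, against 115. At 1 h they were 29 by total counts, 247 with plates pooled, 4 with only the groups compared, 8 with limma, 105 without vitrified replicate 3 and 7 without replicate 4, against 66. At 4 h they were 24 with DESeq2 and 27 with limma, against 14. At 8 h they were 122 with an additive plate term, 709 with plates pooled, 417 with DESeq2, 453 with limma, 161 without fresh replicate 4 and 59 without vitrified replicate 3, against 245. The cause of these shifts was not tested.

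Relations at 0 h moved as well. On TPM, r was 0.77 for Kitl with granulosa markers in vitrified follicles, and 0.13 for that pair and -0.68 for Kitl with oocyte markers in fresh follicles. For Kit with theca and stroma in vitrified follicles r was 0.61 by total counts, 0.24 on TPM and 0.34 without the 2 farthest follicles, against 0.57. By total counts it was -0.60, 0.46 and -0.55 for Kitl with oocyte, Kitl with granulosa and Kit with granulosa markers in fresh follicles. Without the 2 farthest follicles, r was 0.40 for Kit with oocyte markers in vitrified follicles, and 0.43 for Kitl with granulosa and 0.46 for Kit with theca and stroma in fresh follicles. Within plate rows, chosen after seeing the data, r was 0.66 for Kit with oocyte markers in vitrified follicles.

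Scaling by total counts alone moved the median of all genes by more than 0.1. For the step between 0 and 1 h the median was -0.65 in vitrified and -0.60 in fresh follicles, against -0.05 and -0.11 with TMM. No paired analysis was possible because follicles were numbered by accession order within groups and the labels pair none of them. The additive plate term and the pooling of plates gave no value for the step on the vitrified-only plate, and Kit failed the filter in 2 fits of only the groups compared. Kit had a median of 29 counts per follicle, and 3 or 4 follicles per group at 8 h on the shared plate limit what can be seen.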
